A study of Mus musculus with 6 samples.

Results

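Apolipoproteins, the lipase that acts on the particles they coat, and the receptors that take those particles up were followed in cultured mouse microglia, the resident macrophages of the brain. The set was Apoe, Apoc1, Apoc2, Apoc4, Apod, Clu, Lpl, Lrp1 and Vldlr, which are 9 of the 41079 genes in the deposited tables. They were listed by name for what they encode, with no threshold on their values, but with earlier results of these data known. RNA-seq libraries came from primary microglia of C57Bl/6N mice aged 1 to 3 days. All cultures began as mixed glia of pooled neonatal brains in flasks coated with poly-L-ornithine, were fed L-929 conditioned medium, and gave up their microglia on shaking. By the study's methods, the mixed glia grew for weeks in medium with serum, and the harvested microglia first adhered briefly in serum-containing medium. The 3 control cultures were then kept in serum-free DMEM/F12. The 3 optimized cultures received human TGFbeta, human IL34 and human CX3CL1, each at 100 ng/mL. By the study's methods they also received cholesterol, insulin-transferrin-selenium and a collagen IV coating. The effect of any one addition can therefore not be told apart from the others. The study calls the cultures biological replicates, and the p-values below measure the spread between these libraries.

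Apolipoproteins are the protein coat of lipoproteins, the particles in which cholesterol and other lipids travel between cells. In the brain, apolipoprotein E is made mainly by astrocytes and by microglia, is loaded with lipid by the transporters ABCA1 and ABCG1, and is taken up through lipoprotein receptors of the cell surface. Lipoprotein lipase cuts triglycerides in such particles, needs apolipoprotein C-II as its cofactor, and is hindered by proteins such as ANGPTL4.

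The libraries held 20628148 to 27261839 counts on genes, and TMM scaling factors ran from 0.898 to 1.07. Summed over the list, microglia and macrophage markers stood at 11713 to 13138 CPM (counts scaled to a common library size with TMM factors) in the control and at 17118 to 23282 CPM in the optimized libraries, with 6 of 12 genes higher and 2 lower. Astrocyte markers were near the floor, at 41.5 to 43.5 CPM against 31.8 to 36.3 CPM, with 1 of 9 lower and none higher, and Gfap never exceeded 5.18 CPM. The lower sum came through the called gene, Aldh1l1 (16.5 ± 1.47 against 4.64 ± 0.23 CPM). Without overlap in CPM, Slc1a2 and Slc1a3 were lower and Gja1 and Sox9 higher, and none of these passed. Fibroblast and pericyte markers summed to 149 CPM in optimized replicate 3, while the lowest optimized library held 28.9 CPM and the control libraries 32.6 to 46.5 CPM. Most of the sum in optimized replicate 3 was collagen RNA, with Col3a1, Col1a2 and Col1a1 at 72.0, 31.6 and 31.5 CPM. Dcn and Pdgfrb were also highest in that library, but Lum was not, and Rgs5 and Kcnj8 had 0 counts there. Libraries also differed in how short and long transcripts were represented, by the gene lengths implied by the deposited values. In optimized replicate 1 the median of the 3655 shortest transcripts deviated from its group's mean by −0.18 on the log2 scale, and in optimized replicate 2 by 0.14.

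Apoe, Apoc1, Apoc4 and Apoc2 lie in this order and on the same (minus) strand within 29.4 kb of chromosome 7 (GRCm39, chr7:19405504-19434947), the mouse counterpart of the APOE cluster. All were higher in the optimized cultures and none overlapped in CPM between the groups, as was so for 21.4% of all genes tested. The 250 bases upstream of RefSeq start sites of Apoe, Apoc4 and Apoc2 are shown because these are cluster genes that rose. The sequences are the RefSeq entries (GRCm38.p6 table), which occur exactly once in GRCm39, on the minus strand, at chr7:19433114-19433363 for Apoe, chr7:19415386-19415635 for Apoc4 and chr7:19411867-19412116 for Apoc2. Capitals mark matches to letters searched on both strands, of which AGGTCA is a nuclear receptor half-site, GAGGAA the core read by PU.1 and CAGAC a SMAD box.
Apoe: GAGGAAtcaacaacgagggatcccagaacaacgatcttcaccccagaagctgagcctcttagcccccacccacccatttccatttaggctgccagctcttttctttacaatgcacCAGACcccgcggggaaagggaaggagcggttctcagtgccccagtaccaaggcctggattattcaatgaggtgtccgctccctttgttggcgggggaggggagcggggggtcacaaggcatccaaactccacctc
Apoc4: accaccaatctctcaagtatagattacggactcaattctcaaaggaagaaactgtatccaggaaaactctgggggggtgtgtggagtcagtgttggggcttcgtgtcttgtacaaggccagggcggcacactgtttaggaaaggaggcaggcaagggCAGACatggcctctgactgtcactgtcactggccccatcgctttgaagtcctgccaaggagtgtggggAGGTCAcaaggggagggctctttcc
Apoc2: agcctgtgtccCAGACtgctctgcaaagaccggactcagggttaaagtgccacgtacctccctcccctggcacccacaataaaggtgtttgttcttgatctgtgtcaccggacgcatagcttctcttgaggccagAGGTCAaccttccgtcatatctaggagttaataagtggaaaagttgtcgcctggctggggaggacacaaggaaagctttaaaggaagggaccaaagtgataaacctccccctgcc

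In the Apoe window GAGGAA lay 250 to 245 bases and CAGAC 135 to 131 bases before the start. The Apoc4 window held CAGAC at 93 to 89 and AGGTCA at 25 to 20 bases before the start, and the Apoc2 window held CAGAC at 239 to 235 and AGGTCA at 115 to 110. These letters are frequent. Among 32851 RefSeq promoters of the same length, AGGTCA occurred in 14%, GAGGAA in 23.3% and CAGAC in 42.2%, and a match describes the sequence without showing a bound site. RefSeq gives Apoe 3 starts, of which the most upstream is printed, and this window lies inside the longer Apoe gene of the GENCODE annotation, downstream of its first annotated base. The Apoc4 window is also the entry of a readthrough transcript that joins Apoc4 to Apoc2.

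**Figure D1:**
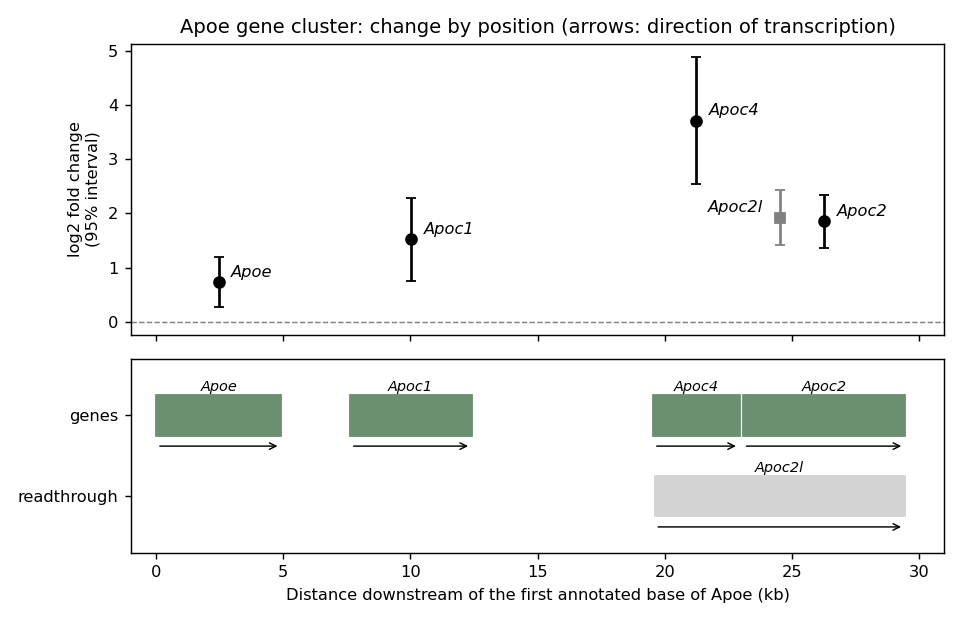
Upper panel, log2 fold change (optimized over control, edgeR, with its 95% interval) of each gene at the middle of its position, and lower panel, the genes to scale as boxes by distance in kb from the first annotated base of Apoe, with arrows for the direction of transcription and the readthrough Apoc2l in grey. The genes run in the same direction over 29.4 kb, and the log2 fold changes are 0.73 for Apoe, 1.52 for Apoc1, 3.71 for Apoc4 and 1.86 for Apoc2.

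The question was whether the optimized medium changed the RNA of these genes. Of the 9 members, 5 were called higher and 1 lower at an adjusted p under 0.05 (the edgeR quasi-likelihood test, with p-values adjusted after Benjamini and Hochberg over all genes tested, as for every adjusted p given here), where 29.8% of all 14618 genes tested were called (14.7% higher and 15.2% lower). Apoe, Apoc1, Apoc2, Apoc4 and Lrp1 rose, Lpl fell, and Apod, Clu and Vldlr did not pass. The groups shared no CPM range for 4 higher and 1 lower member, against 43.9% of all genes tested (21.4% higher and 22.5% lower). Apoc1, Apoc2, Apoc4 and Lpl, 4 of the 9, had an absolute log2 fold change of at least 1 with an adjusted p under 0.05, as had 11% of all genes tested. The median log2 fold change was 0.67 over the members and 0.01 over all genes tested, and the median absolute log2 fold change was 0.73 against 0.26. Since the members were chosen with earlier results known, these comparisons with all genes describe the list and do not test it. All 9 members passed the filter on low counts, but Apoc4 would not have passed on its control counts, so its presence among the tested genes already leaned on the group where it was high. Scaling by library size alone called 1513 genes higher and 3168 lower in place of 2142 and 2218, moved the median of all genes to −0.12, and left 4 members higher and 1 lower.

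**Figure D2:**
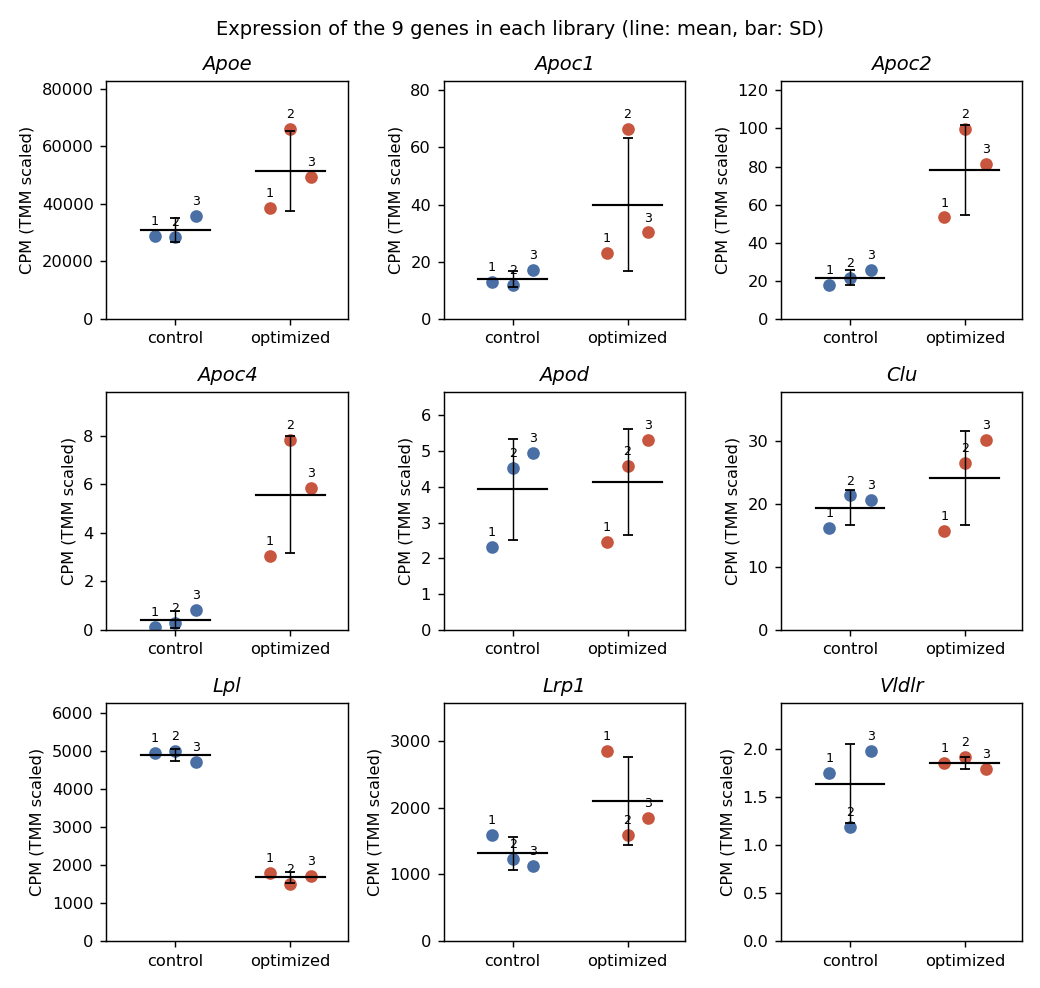
CPM (TMM scaled, linear axes from 0) of the 9 genes in each of the 3 control and 3 optimized libraries, 1 panel per gene and 1 point per library with its replicate number, with the group mean as a line and the SD as a bar. Apoe, Apoc1, Apoc2 and Apoc4 sit higher in every optimized library, Lpl lower, and the groups overlap for Lrp1, Apod, Clu and Vldlr.

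Apoe, which encodes the main apolipoprotein of the brain, was among the most abundant transcripts of these cells, second by FPKM (a level per transcript length and library size) in all 6 libraries. It stood at 28749, 28358 and 35665 CPM in control replicates 1, 2 and 3 and at 38575, 66223 and 49351 CPM in optimized replicates 1, 2 and 3. Every optimized library lay above every control library, although the lowest optimized and the highest control library were close. In bulk RNA, a change in the share of producing cells and a change in RNA per cell cannot be told apart. Its mean went up to 51383 ± 13936 CPM from 30924 ± 4110 CPM (SD over 3 libraries, as for all such errors here), a log2 fold change of 0.73 (SE 0.20, adjusted p = 0.0217, edgeR). Apoe took 3.02% to 3.57% of all counts in the control and 3.95% to 5.94% in the optimized libraries. The call did not survive leaving out control replicate 1 (adjusted p = 0.0902), leaving out control replicate 2 (0.113) or leaving out optimized replicate 3 (0.0535), while the log2 fold change over all single omissions stayed between 0.50 and 0.90.

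Apoc1, whose product slows the uptake of lipoproteins and inhibits lipase, was far scarcer than Apoe in every library and also rose. It measured 12.9, 11.8 and 17.1 CPM in the control and 23.0, 66.6 and 30.2 CPM in the optimized libraries. The groups did not overlap, and optimized replicate 2 stood well above the others. The means were 13.9 ± 2.76 and 39.9 ± 23.4 CPM, a 2.86-fold difference and a log2 fold change of 1.52 (SE 0.34, adjusted p = 0.00783, edgeR). Without optimized replicate 2 the log2 fold change was 0.92 and still passed (adjusted p = 0.00213), and without control replicate 2 it was 1.41 and did not pass (0.0529).

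Apoc2 encodes the cofactor that lipoprotein lipase needs. It measured 17.9, 21.2 and 25.7 CPM in the control and 53.3, 99.97 and 81.4 CPM in the optimized libraries. The groups lay well apart. From 21.6 ± 3.90 CPM it rose to 78.2 ± 23.5 CPM, 3.62-fold, with a log2 fold change of 1.86 (SE 0.22, adjusted p = 0.00013, edgeR). Under all 16 alternatives the log2 fold change lay between 1.63 and 2.07 and passed.

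Apoc4, a minor apolipoprotein of triglyceride-rich particles, was counted 3, 7 and 22 times in control replicates 1, 2 and 3 and 64, 184 and 121 times in the optimized ones. In CPM these were 0.13, 0.29 and 0.81 against 3.03, 7.83 and 5.85, so the gene was close to absent in the control and low in the optimized cultures. The log2 fold change was 3.71 (SE 0.52, 95% interval 2.54 to 4.88, adjusted p = 0.000439, edgeR). It ranked above 99.6% of all genes tested, a set that Apoc4 entered only through its optimized counts. Most control counts came from replicate 3, without which the log2 fold change was 4.69.

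Counts on Apoc4 and Apoc2 cannot be fully separated from a readthrough transcript that the tables list as Apoc2l (chr7:19405509-19415348). All of its 765 exon bases lie in exons of Apoc2 (646 bases) or Apoc4 (119 bases) on the same strand. It was counted 407, 521 and 714 times in the control and 1165, 2493 and 1778 times in the optimized libraries, which is 98.0% to 98.9% of the summed Apoc2 and Apoc4 counts in the same library. Its log2 fold change was 1.92 (SE 0.23, adjusted p = 0.000133, edgeR), near that of Apoc2. Since the Apoc2l counts nearly repeat that sum, which is mostly Apoc2, this value is not a separate measurement of the readthrough transcript. As a share of the Apoc2 count, Apoc4 was 0.733%, 1.35% and 3.14% in the control and 5.69%, 7.84% and 7.19% in the optimized libraries, without overlap. Whether the rise of Apoc4 came from its own transcript or from readthrough into Apoc2 was not tested.

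The remaining apolipoproteins did not pass the test. Apod, whose product is a lipocalin that carries small lipids, measured 2.32, 4.53 and 4.94 CPM in the control and 2.46, 4.60 and 5.32 CPM in the optimized libraries, and the ranges overlapped almost fully. Its log2 fold change was 0.07 with a 95% interval of −0.68 to 0.81 (adjusted p = 0.911, edgeR), and its sign was not stable, turning with scaling by library size alone, without control replicate 1, without optimized replicate 2 or 3 and with limma on FPKM. Clu, which encodes clusterin or apolipoprotein J, a secreted chaperone, measured 16.2, 21.3 and 20.6 CPM against 15.7, 26.5 and 30.2 CPM. Optimized replicate 1 held the lowest and optimized replicate 3 the highest Clu value of all 6 libraries. The log2 fold change was 0.32 with a 95% interval of −0.16 to 0.79 (adjusted p = 0.315, edgeR), and without optimized replicate 1 it was 0.55 and passed (0.00266). Apod and Clu were both highest in optimized replicate 3, where the sum of fibroblast and pericyte markers, mostly collagens, was also highest. The part of those cells in either value was not tested. Apod shares 782 exon bases, 26.4% of its exons, with Gm41442 on the opposite strand, and whether counting used the strand is not given in the sources used here.

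Lpl, which encodes the lipase itself, went the other way. It measured 4951, 5006 and 4718 CPM in the control and 1798, 1495 and 1718 CPM in the optimized libraries. The 3 values within each group lay close together and the groups were far apart. The mean fell from 4891 ± 153 to 1671 ± 157 CPM, 2.93-fold, at a log2 fold change of −1.55 (SE 0.11, adjusted p = 5.24e-06, edgeR). Only 2.41% of all genes tested had a log2 fold change as low or lower. By FPKM the gene ranked 36 to 45 among all genes in the control and 89 to 153 in the optimized libraries, so it stayed an abundant transcript. It passed under all 16 alternatives, at −1.69 to −1.48.

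Lrp1, a large endocytic receptor that binds apolipoprotein E and many other ligands, measured 1600, 1231 and 1125 CPM in the control and 2860, 1600 and 1850 CPM in the optimized libraries. The groups touched, since control replicate 1 and optimized replicate 2 were at the same level. The means were 1319 ± 249 and 2103 ± 667 CPM, and the log2 fold change was 0.67 (SE 0.21, adjusted p = 0.039, edgeR). The call did not pass with control replicate 2 left out (adjusted p = 0.15), with control replicate 3 left out (0.137), with optimized replicate 3 left out (0.0535), or with scaling by library size alone (0.124). Without optimized replicate 1, which held the highest Lrp1 level, the log2 fold change was 0.39.

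By the gene lengths implied by deposited counts and FPKM, Lrp1 is the longest of the 9 genes, at percentile 96.8 among genes tested. Long transcripts by this measure were over-represented in optimized replicate 1 and, less so, in control replicate 1. These 2 libraries held the highest Lrp1 level of their groups. The 3655 longest transcripts deviated there from the group mean by a median of 0.16 and 0.06 on the log2 scale. With the trend over length removed from each library, an adjustment added after the data were seen, the log2 fold change of Lrp1 was 0.54 (adjusted p = 0.00865, edgeR). Apoc4, Apoc1 and Apoc2 stood at the other end, at percentiles 3.19, 3.51 and 6.22 of length, and changed by 3.73, 1.52 and 1.88 on the log2 scale after the adjustment. None of the 9 calls differed with the trend removed.

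Vldlr, a receptor that binds apolipoprotein E particles and reelin, was barely expressed, with 40, 29 and 54 counts in the control and 39, 45 and 37 in the optimized libraries. In CPM the values were 1.75, 1.18 and 1.98 against 1.85, 1.92 and 1.79, and the optimized values fell inside the control range. The log2 fold change of 0.18 had a 95% interval of −0.43 to 0.78 (adjusted p = 0.684, edgeR), so that a moderate change was not detectable at this depth.

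**Figure D3:**
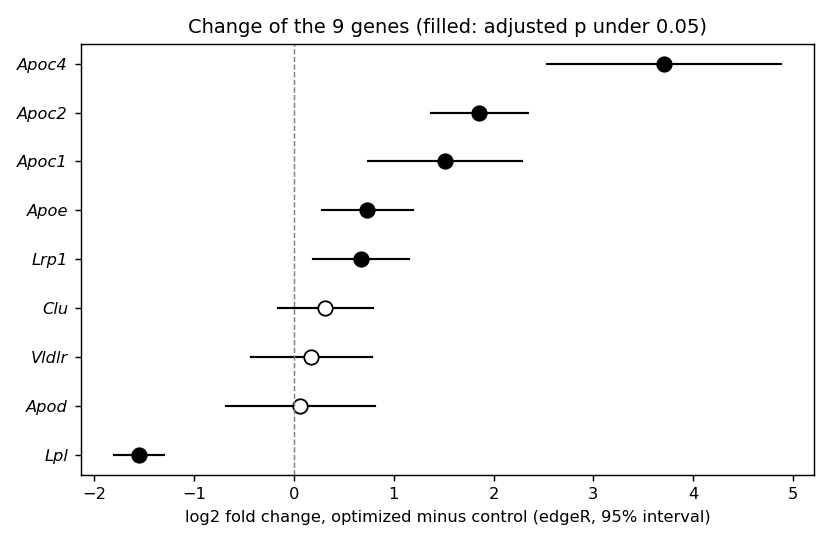
Log2 fold change (optimized over control, edgeR with TMM scaling) of each of the 9 members, as a point with its 95% interval, filled where the adjusted p was under 0.05. Apoc4, Apoc2, Apoc1, Apoe and Lrp1 lie above 0, Lpl lies at −1.55, and the intervals of Apod, Clu and Vldlr cross 0.

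Compared per length on the deposited FPKM scale, the members covered 5 orders of magnitude. In the control the order was Apoe at 12837 ± 1205 FPKM, Lpl at 1229 ± 82.4, Lrp1 at 89.1 ± 18.9, Apoc2 at 26.9 ± 3.98, Apoc1 at 25.5 ± 4.04, Clu at 9.77 ± 1.35, Apod at 1.92 ± 0.66, Apoc4 at 0.78 ± 0.65 and Vldlr at 0.13 ± 0.029. Only the neighbours Apoc2 and Apoc1, and Apod and Apoc4, had overlapping ranges. In the optimized cultures Apoe stood at 19287 ± 4406 FPKM, Lpl at 382 ± 51.1, Lrp1 at 130 ± 45.6, Apoc2 at 88.1 ± 23.3, Apoc1 at 65.4 ± 35.4, Clu at 11.01 ± 3.32, Apoc4 at 9.82 ± 3.91, Apod at 1.83 ± 0.64 and Vldlr at 0.13 ± 0.0037. There, the ranges of Lrp1 and Apoc2, of Apoc2 and Apoc1, and of Clu and Apoc4 overlapped. Among all genes, the mean FPKM of Apoc2 moved from rank 2196 to 568, that of Apoc1 from 2294 to 772 and that of Apoc4 from 12046 to 4647, while Lpl moved from rank 37 to 120. The authors' gene lengths behind these values differ from exon lengths in the GENCODE annotation, so levels between genes are approximate.

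Ratios within a library do not depend on its scaling and show how the proportions shifted. Relative to Apoe, the FPKM of Apoc1 was 1.60-fold, that of Apoc2 2.17-fold and that of Apoc4 10.2-fold higher in the optimized cultures, each without overlap between the groups. The cofactor to lipase ratio, Apoc2 over Lpl, was 0.0180, 0.0211 and 0.0271 in the control and 0.148, 0.333 and 0.236 in the optimized libraries. The lowest optimized ratio was several times the highest control ratio, and the log2 difference was 3.38. With 3 against 3 libraries the exact two-sided permutation test cannot go below p = 0.1, the value reached by these 4 ratios, and the Benjamini-Hochberg value over the 7 ratios compared was 0.175. Clu over Apoe (log2 difference −0.43, exact p = 0.3), Apod over Apoe (−0.63, exact p = 0.2) and Vldlr over Lrp1 (−0.43, exact p = 0.5) overlapped between the groups.

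**Figure D4:**
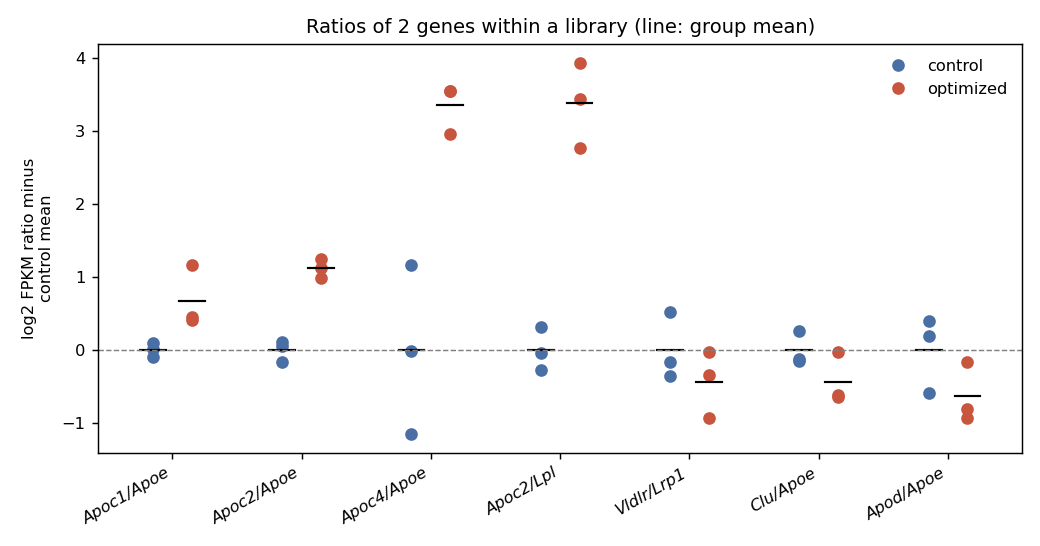
FPKM ratios of 7 gene pairs within each library, as the log2 ratio minus the mean of the control libraries, 1 point per library and a line at each group's mean. Apoc1, Apoc2 and Apoc4 over Apoe and Apoc2 over Lpl are higher in every optimized library, and the other 3 ratios overlap.

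Other genes of the pathway were grouped by role. Of 17 other apolipoprotein genes only 5 were expressed enough to be tested, of which 2 (40%, against 29.8% of all genes) were lower and none higher (median log2 fold change −0.43). Apof, whose product inhibits lipid transfer between particles, fell from 15.3 ± 1.55 to 7.34 ± 1.89 CPM, a log2 fold change of −1.06 (adjusted p = 0.00162, edgeR). The other was Apol9b, also named because only 2 genes were called, with 12, 18 and 21 counts in the control and 4, 2 and 0 in the optimized libraries (log2 fold change −2.81), and it would not have passed the filter on its optimized counts. Several apolipoproteins typical of liver and gut were at the floor, with 0 counts of Apoa4, Apoa5 and Apoc3 in every library, 2 of Apoa1 and 1 of Apob over all 6. Apoa2, also of liver, was measured at 9.87 ± 1.44 against 7.31 ± 1.49 CPM and did not pass (adjusted p = 0.101, edgeR). Apoa2 shares 889 exon bases, 20.4% of its exons, with the more abundant Tomm40l on the opposite strand. The part of Tomm40l reads in its counts was not tested.

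Among 23 further receptors and their chaperones, 21 were tested, 6 were higher and 3 lower (42.9% called, against 29.8% of all genes), and the median log2 fold change was 0.10. Lrpap1, the chaperone that keeps Lrp1 and its relatives from binding ligands too early, measured 164, 174 and 185 CPM in the control and 564, 830 and 783 CPM in the optimized libraries, a 4.16-fold rise (log2 fold change 2.06, SE 0.14, adjusted p = 4.19e-06, edgeR). So the chaperone rose more than the receptor, at log2 fold changes of 2.06 and 0.67, although the difference between the 2 genes was not tested.

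Mylip, a ubiquitin ligase that marks lipoprotein receptors for degradation, rose from 165 ± 1.83 to 307 ± 4.13 CPM (log2 fold change 0.90). Sort1, a sorting receptor that also binds apolipoproteins, rose from 97.1 ± 4.53 to 185 ± 11.04 CPM (0.93). Dab2, an endocytic adaptor for these receptors, fell from 748 ± 10.4 to 373 ± 26.4 CPM (adjusted p = 2.15e-05, edgeR). Trem2, a microglial receptor that binds lipids and apolipoproteins, was at 575, 613 and 681 CPM in the control and at 728, 1288 and 1079 CPM in the optimized libraries, so the groups did not overlap. Its log2 fold change was 0.73 (adjusted p = 0.013, edgeR), the same size as that of Apoe. The call passed in 12 of 16 alternatives. It was lost without control replicate 1 or 2, and with limma on log2(FPKM + 1) or log2(FPKM + 0.1) without a filter on mean FPKM. Sorl1 fell as well (−0.69, adjusted p = 0.00173), whereas the receptor Lrp8 did not pass (9.66 ± 1.79 against 8.96 ± 1.38 CPM, 95% interval −0.49 to 0.28). The 3 remaining calls in this list, Lrp5, Scarb1 and Apobr, had log2 fold changes of 0.39, 0.34 and −0.49, and Lrp5 and Scarb1 passed in only 10 and 7 of 16 alternatives.

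Among 19 lipases and lipase regulators, 14 were tested, 3 were higher and 4 lower (50% called, against 29.8% of all genes, median log2 fold change 0.02). Angptl4, a secreted inhibitor of lipoprotein lipase, measured 8.35, 6.61 and 6.88 CPM in the control and 18.2, 28.4 and 30.6 CPM in the optimized libraries. No value overlapped, and the log2 fold change was 1.82 (SE 0.20, adjusted p = 7.44e-05, edgeR). Furin, a protease that can cleave lipoprotein lipase, rose from 97.7 ± 8.79 to 210 ± 7.41 CPM (1.10), and Lmf1, which is needed for the lipase to fold, rose from 18.5 ± 0.80 to 29.0 ± 3.45 CPM (0.65). Sdc4, a heparan sulfate proteoglycan of the cell surface, fell from 127 ± 5.25 to 47.1 ± 1.46 CPM (−1.44), and Sdc1 from 4.64 ± 0.10 to 3.29 ± 0.10 CPM (−0.50), a call that was lost in 9 of 16 alternatives. Lipa, the acid lipase of lysosomes, fell from 1128 ± 33.5 to 674 ± 25.2 CPM (−0.74, adjusted p = 0.000145), and Lipe, the hormone-sensitive lipase, had a log2 fold change of −0.45 (0.0076). Gpihbp1, the endothelial anchor of lipoprotein lipase, had 0 counts in all 6 libraries.

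The last list held 19 genes of lipid loading, transfer and their control by the liver X receptors (LXR), of which 18 were tested, 2 were higher and 3 lower, 27.8% in all and thus near the 29.8% of all genes. Abca1 and Abcg1, the transporters that load apolipoprotein E with lipid, did not pass, at 1541 ± 135 against 1413 ± 289 CPM (95% interval of the log2 fold change −0.46 to 0.21) and 384 ± 10.9 against 433 ± 20.9 CPM (−0.01 to 0.36). Pltp, which transfers phospholipids and whose exons overlap those of the far more abundant Ctsa on the opposite strand, was at 268 ± 5.10 and 271 ± 53.7 CPM (−0.28 to 0.31). Nr1h2, which encodes LXR beta, did not pass either (−0.37 to 0.12), while Nr1h3, which encodes LXR alpha, fell from 10.3 ± 1.22 to 2.70 ± 0.44 CPM (log2 fold change −1.92, adjusted p = 2.31e-05, edgeR). Nr1h3 shares 256 exon bases with the far more abundant Acp2 on the opposite strand. Ch25h, which makes 25-hydroxycholesterol, rose from 35.1 ± 4.03 to 235 ± 26.4 CPM (2.74, adjusted p = 2.33e-07), and Cyp27a1, which makes 27-hydroxycholesterol, fell from 50.7 ± 4.26 to 16.8 ± 1.84 CPM (−1.59, adjusted p = 4.27e-06, edgeR). Srebf2, the activator of cholesterol synthesis, fell from 149 ± 9.52 to 79.9 ± 1.65 CPM (−0.89), and Npc1, which exports cholesterol from lysosomes, rose from 259 ± 10.5 to 374 ± 13.1 CPM (0.53).

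**Figure D5:**
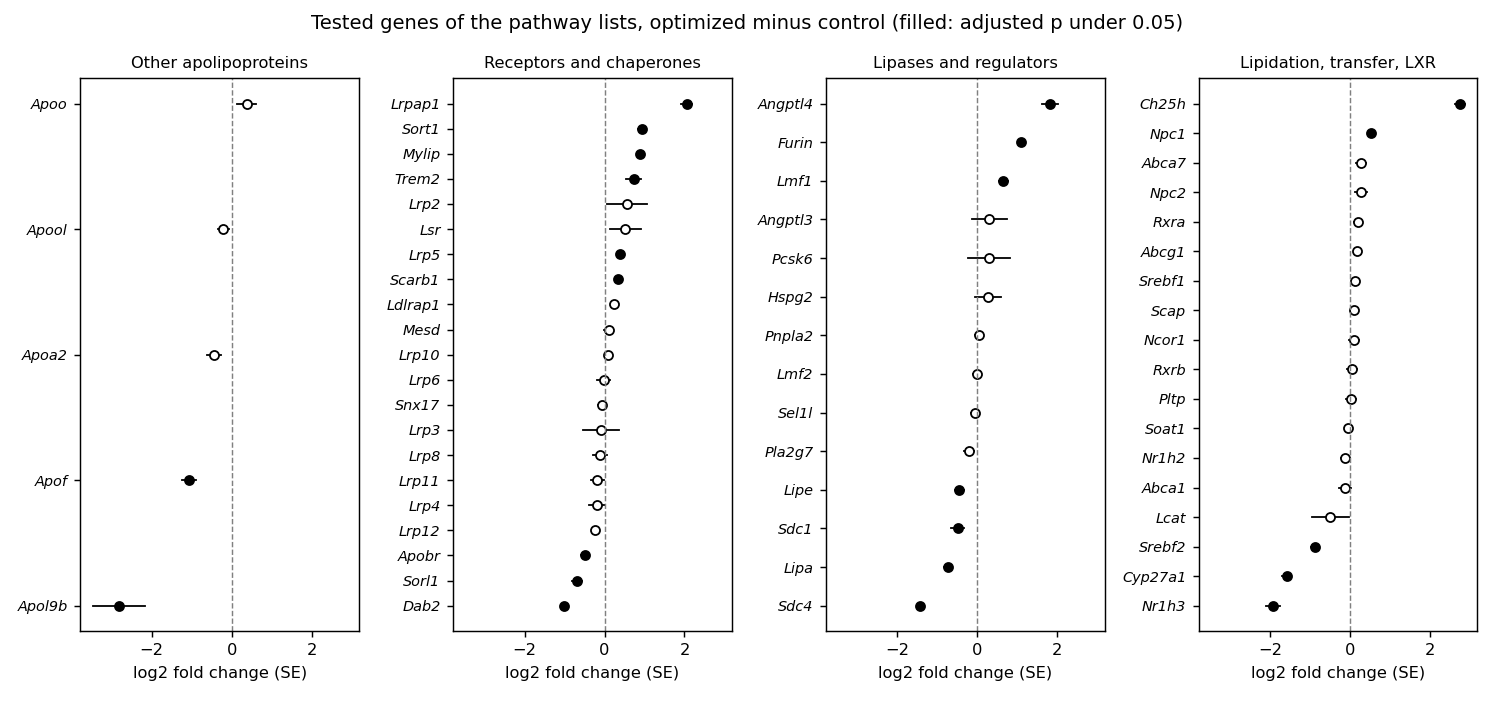
Log2 fold change (optimized over control, edgeR with TMM scaling) of every tested gene in the 4 pathway lists, 1 row per gene and 1 panel per list, with bars of 1 SE and points filled where the adjusted p was under 0.05. Apol9b at −2.81 and Nr1h3 at −1.92 lie at the low end, Ch25h at 2.74 and Lrpap1 at 2.06 at the high end, and the list medians lie between −0.43 and 0.10.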

How the data were processed

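RNA of 6 cultures of primary mouse microglia was sequenced as paired-end reads. Per the submitters' processing notes, reads were mapped to mm39 with HISAT2 and assigned with featureCounts. Tool versions, gene annotation, strandedness of counting and treatment of reads on overlapping genes are not given in the sources used here. The authors deposited unnormalized read counts for 41079 genes in 1 table and FPKM for these genes in another. Deposited FPKM equalled counts over the product of a gene constant and a library constant, to within 7.13e-09 over 11141 genes. Groups and replicate numbers were taken from the labels.

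Tests on the counts used edgeR 4.0.16 under R 4.3.3 (filterByExpr, TMM scaling, glmQLFit and glmQLFTest, 2 groups without covariates) over 14618 genes, with Benjamini-Hochberg adjustment over all of them and a threshold of 0.05. CPM are TMM scaled, errors are SD over 3 libraries, and SE of log2 fold changes were computed as their size over the root of the F statistic. FPKM served for levels between genes and for 7 ratios (exact permutation test). The tests were tried on simulated counts. Alternatives were other scaling, other filters, DESeq2 1.42.0, limma 3.58.1 on log2(FPKM + 1) and log2(FPKM + 0.1), a replicate block, and leaving out each library. The removal of a spline trend over transcript length, as implied by counts and FPKM, was added after the data were seen. Coordinates and exon overlaps come from GENCODE M39 (GRCm39), which holds 35087 of the 41079 symbols. Promoters come from RefSeq, which has an entry for 6 of the 9 members.

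The members and gene lists were chosen with earlier results of these data known. All members are named, and of each pathway list up to 6 genes past the threshold with the largest absolute log2 fold change and a mean of at least 1 CPM, plus Lrp8, Lrpap1, Abca1, Abcg1, Nr1h2, Nr1h3, Pltp, Lipa, Trem2, Gpihbp1 and Angptl4. Apol9b, Lrp5, Scarb1, Apobr and Lipe were added with their values in view. A gene of the receptor list is not reported here and is left out of the list counts and the ratios. Library totals ran from 20628148 to 27261839 counts, and for genes of few counts (Vldlr, and Apoc4 in the control) counting error limits the precision.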

Additional observations from a re-analysis of the deposited data

How the results depend on the processing

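None of the members or counts changed direction of a called value under any of the 16 alternatives, and Apoc2, Apoc4 and Lpl passed in every fit that tested them (Apoc4 was not among genes with at least 10 counts in every library). Among members that did not pass, the sign of Apod turned by library size alone (−0.07), without control replicate 1 (−0.20), without optimized replicate 2 (−0.03) or 3 (−0.16) and in the 3 limma fits (−0.04, −0.06 and −0.04), and that of Vldlr without control replicate 2 (−0.01). Members called higher numbered 5, but 2 to 6 when 1 library was left out (2 without control replicate 2, 3 without optimized replicate 3), and 2, 2 and 3 for limma with a pseudocount of 1 FPKM, with 0.1 FPKM, and after a filter at 1 mean FPKM. In these limma fits all genes called higher numbered 1307, 1312 and 1176 against 2142, and 33.1%, 33.0% and 28.4% of calls were higher against 49.1% with TMM scaling and 32.3% by library size alone. Without 1 library, the log2 fold change of Apoe lay between 0.50 and 0.90, that of Apoc1 between 0.92 and 1.797, that of Lrp1 between 0.39 and 0.83 and that of Clu between 0.12 and 0.55. With limma, Apoe was at 0.57 in all 3 fits (adjusted p = 0.651, 0.614 and 0.0859), Apoc1 at 1.21 and 1.24 in the fits that lost its call (0.0837 and 0.0658), and Lrp1 at 0.50, 0.50 and 0.50 (0.327, 0.3 and 0.161). By library size alone Lrp1 was at 0.56 (adjusted p = 0.124). The cause of these losses was not tested. Whether replicate numbers pair the samples cannot be settled from these values. Same-numbered libraries correlated in their deviations from the group means at 0.27, −0.01 and 0.18. Control replicate 3 correlated about equally with optimized replicate 2 (0.19) and optimized replicate 3 (0.18). The fit with the replicate number as a block called 2401 genes higher and 2523 lower, changed no member's call, and gave 0.70 for Apoe, 1.39 for Apoc1 and 0.64 for Lrp1.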

Other observations

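Marker lists of other cells that also use apolipoproteins moved unevenly. Border-associated macrophage markers summed to 475 to 523 CPM in the control and to 264 to 368 CPM in the optimized libraries. That drop was Mrc1 (330 ± 21.8 against 62.7 ± 5.37 CPM), while F13a1 and Pf4 of the same list were higher (log2 fold changes 1.601 and 0.53). Oligodendrocyte markers summed to 200 to 221 and 208 to 251 CPM, and neuron markers to 3.07 to 4.72 and 5.30 to 6.34 CPM, with astrocyte markers as given above. The sum of the oligodendrocyte precursor list went from 39.2 to 50.9 CPM to 446 to 632 CPM through Cspg4, and that of the endothelial list from 81.5 to 97.1 CPM to 274 to 352 CPM through Flt1. The part of other cell types in the levels of the apolipoprotein genes was not tested.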
